A study of Homo sapiens with 12 samples.

Results

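The genes described here are 8 receptors of the tumour necrosis factor (TNF) receptor family that start or blunt apoptosis, and FADD, the adaptor that death receptors recruit. They were taken by name: FAS, TNFRSF10A, TNFRSF10B, TNFRSF10C, TNFRSF10D, TNFRSF6B, TNFRSF1A, EDA2R and FADD, and all 9 were among the 16676 genes of the deposited table. The cells were HCT116, an established human colon carcinoma line grown in DMEM with fetal bovine serum. There were 3 lines: unmodified cells (WT), cells without the long non-coding RNA SPARCLE (KO) and cells with SPARCLE over-expressed (OE). Each line was kept in regular medium (control) or exposed to 1 µM doxorubicin for 48 h, a drug that breaks DNA, which gave 6 groups of 2 libraries, lettered a and b. The labels name SPARCLE as an RNA induced by p53 and ask about apoptosis after genotoxic stress. They do not give the number of clones behind the KO and OE lines or the vector, and the WT cells are not described as carrying an empty vector. The letters are given as biological replicates, with nothing on whether cultures were grown on different days, so p-values measure the spread between these libraries.

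Death receptors carry an intracellular death domain. When their ligand binds, FAS and the TRAIL receptors TNFRSF10A (DR4) and TNFRSF10B (DR5) bind FADD, which brings caspase-8 and caspase-10 together so that they cleave and activate each other. TNFRSF1A, the main TNF receptor, first binds TRADD and RIPK1 and more often signals to NF-kB. Decoy receptors bind the same ligands and pass on no death signal: TNFRSF10C is held in the membrane by a lipid anchor and has no intracellular part, TNFRSF10D has a truncated death domain, and TNFRSF6B is a secreted protein that captures FAS ligand. EDA2R is the receptor for the A2 form of ectodysplasin. FAS, EDA2R and the TRAIL receptors, decoys included, are known as genes that p53 can switch on.

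Because p53 is the factor that the study's labels name, the promoters of the members were read against its binding site, which is a pair of half-sites of 10 bases each. RefSeq windows of 250 bases before to 50 bases after a gene's start (assembly GRCh38.p14) were at hand for 5 of the 9 members, in 8 windows: 3 for FAS, 2 for EDA2R and 1 each for FADD, TNFRSF1A and TNFRSF6B. In each window both strands were searched for the 20 bases closest to the p53 full site with no spacer between its half-sites. The closest stretch of each member is shown 5′ to 3′ on the strand of the match, with bases that fit the site in capitals and mismatches in lower case.
FAS, chr10:88991309-88991328, plus strand: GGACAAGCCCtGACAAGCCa
TNFRSF6B, chr20:63696419-63696438, plus strand: cAGgcTGCCTGGGCTgGTCT
EDA2R, chrX:66639496-66639515, minus strand: AGACAAcTTgAtGCTTtCTC
TNFRSF1A, chr12:6342138-6342157, minus strand: AAAgAAcgTTGGGCcTcCTC
FADD, chr11:70203234-70203253, plus strand: cGGCTTcgCTAGGgAcGCaT
The FAS stretch had 2 mismatches, and 0.6% of all 35116 windows held a stretch with as few. It is the closest of 3 FAS windows, while the share counts single windows. In the other FAS windows the closest stretch had 5 mismatches (70.5% of windows had as few), and in the other EDA2R window 6 (97.4%). The closest stretches of TNFRSF6B and of EDA2R had 4 mismatches, as 26.0% of windows did or better, that of TNFRSF1A had 5 (70.5% of windows) and that of FADD had 6 (97.4% of windows). A perfect half-site stood in 1 of the 8 member windows, this one of FAS, and in 6.6% of all windows. It begins 122 bases before a RefSeq start of FAS and 727 bases after the first FAS start of GENCODE v29. A match is a description of letters and not a measured site of binding.

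Reads recovered from the deposited values ran from 12593468 to 30674428 per library, with more in each doxorubicin library than in any control library. All 9 members gave whole reads in the 12 libraries. The row of SPARCLE held 384 and 622 reads in OE control, 430 and 487 in OE doxorubicin, 0 in each WT and KO control library, 0 and 3 in WT doxorubicin and 4 and 1 in KO doxorubicin. It thus sets the OE line apart but cannot tell KO from WT. CDKN1A, the p53 target that halts the cell cycle, stood at 73.5 to 110 TPM (a level scaled by gene length and by the total of the library) in control and at 505 to 1038 TPM under doxorubicin. All 6 epithelial markers were listed, with a summed level of 1040 to 2205 TPM in control and 2680 to 3321 TPM under doxorubicin. The rise of the sum came from the keratins KRT8, KRT18 and KRT19. EPCAM had a mean of 138 TPM in control and 135 under doxorubicin, and CDH1 of 35.4 and 36.9. CLDN7 went from a mean of 166.5 to 105.5 TPM. Of 10 leukocyte markers 2 were listed (CD68 and ITGAM), with a sum of 13.3 to 44.2 TPM in control and 4.22 to 10.0 TPM under doxorubicin, nearly all of it CD68, and PTPRC was not among the listed genes. Of 7 fibroblast markers 1 was listed (COL1A1), at 2.37 to 4.19 TPM in control and 1.04 to 6.19 TPM under doxorubicin. Their part in the members' values was not tested. The doxorubicin libraries of letter a stood apart from those of letter b in both engineered lines: over all tested genes, the a minus b difference in KO and that in OE had a Pearson r of 0.81, where the same measure lay between -0.39 and 0.50 for the other 14 pairs of groups. The genes share their libraries and are not independent.

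Under doxorubicin 7 of the 9 genes rose and 2 fell, taking the mean of the 3 lines. The 3 death receptors FAS, TNFRSF10A and TNFRSF10B, TNFRSF1A, the anchored decoy TNFRSF10C, EDA2R and FADD rose, and the decoys TNFRSF10D and TNFRSF6B fell. This was tested with limma on log2(TPM + 1) over 15256 genes, with Benjamini-Hochberg adjusted p under 0.05 as the threshold. In the same comparison 32.2% of all tested genes rose and 25.9% fell. The members' median difference was 1.41 on the log2(TPM + 1) scale, against 0.09 over all tested genes. In 6 members every doxorubicin library was above every control library, and in 1, TNFRSF10D, every one was below; over all tested genes these shares were 15.7% and 16.3%. The bulk measurement cannot tell a change in RNA per cell from a change in the share of cells that express a gene.

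**Figure D1:**
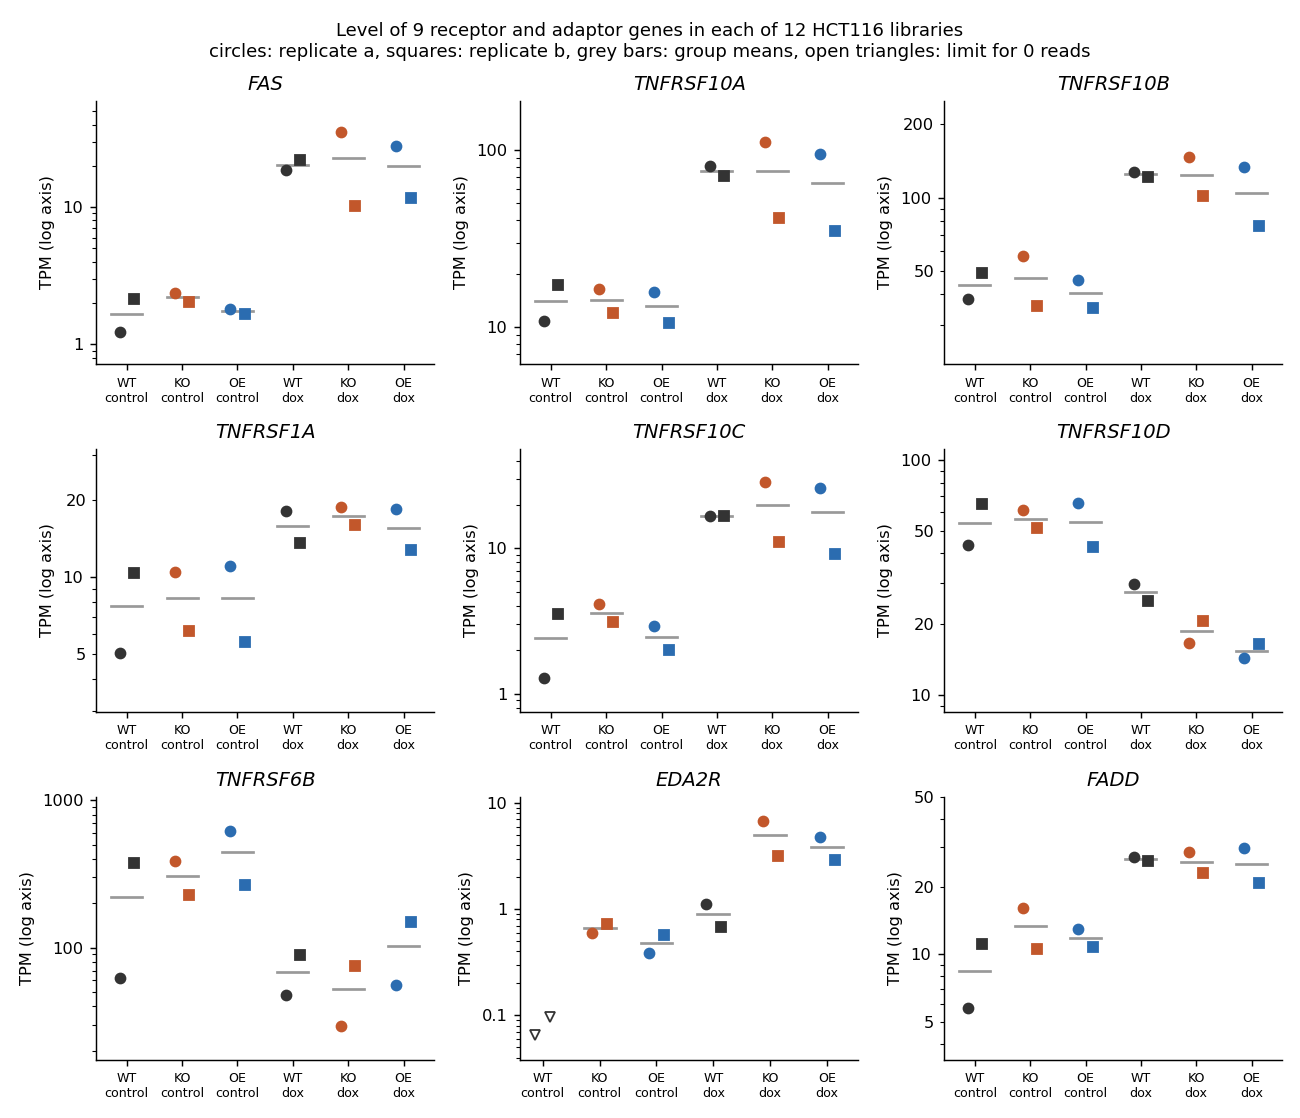
Level of each gene in TPM (log axis) in the 12 libraries, by line and medium; circles are replicate a, squares replicate b, grey bars group means, and open triangles the limit set by 0 reads (3 reads). The doxorubicin libraries lie above the control libraries for FAS, TNFRSF10A, TNFRSF10B, TNFRSF1A, TNFRSF10C and FADD and below them for TNFRSF10D, while those of TNFRSF6B and EDA2R overlap.

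Within single lines the threshold was passed by 7 members in WT (6 rose and 1 fell, against 19.6% and 12.6% of all tested genes), by 8 in KO (6 and 2, against 9.90% and 14.3%) and by 7 in OE (6 and 1, against 12.4% and 10.6%). FAS, TNFRSF10A, TNFRSF10B, TNFRSF10C, EDA2R and FADD rose and TNFRSF10D fell in each line. Of all genes called in WT 60.9% were higher, and 49.6% with median-ratio scaling of libraries, under which these members kept their direction. The count fell to 3 in KO without control replicate b and to 5 without doxorubicin replicate a. In OE it fell to 3 without control replicate b and to 3 without doxorubicin replicate a. A group of 1 library is assumed in those fits to vary as the other groups do. The main fit likewise gives each gene 1 estimate of spread, shared by all 6 groups. The SE of a gene is therefore the same in each line and does not measure that line's own spread.

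FAS, the receptor for FAS ligand, had the largest rise of the members on the log2(TPM + 1) scale. Its level was 1.22 and 2.13 TPM in untreated WT, 2.38 and 2.04 in untreated KO and 1.82 and 1.66 in untreated OE, from 59 to 88 reads per library. Under doxorubicin it was 18.6 and 21.9 TPM in treated WT, 35.1 and 10.3 in treated KO and 28.1 and 11.6 in treated OE, each pair in the order a, b. The lowest doxorubicin library was far above the highest control library, and under the drug letter a was well above letter b in KO and OE and below it in WT. The log2(TPM + 1) difference was 3.01 in WT (SE 0.48, adjusted p = 0.000923), 2.65 in KO (SE 0.48, adjusted p = 0.0026) and 2.81 in OE (SE 0.48, adjusted p = 0.00215). Pooled reads, scaled between libraries as TPM is, gave a ratio of doxorubicin to control of 12.8 in WT (95% counting interval 10.8 to 15.5). The ratio was 9.72 in KO (8.32 to 11.4) and 11.2 in OE (9.49 to 13.3). The first exons of FAS overlap ACTA2, smooth muscle actin, on the opposite strand. ACTA2 went from 1.36 to 3.15 TPM in control to 6.90 to 14.8 TPM under doxorubicin, and its part in the value of FAS was not tested, since the strand setting of the counting is not given in the sources used here. The p53-like stretch shown above for FAS lies where the 2 genes overlap.

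TNFRSF10B, a receptor for TRAIL, was more abundant than FAS, TNFRSF10A and TNFRSF1A in each library. It stood at 38.2 and 48.7 TPM in untreated WT, 57.5 and 35.9 in untreated KO and 45.7 and 35.1 in untreated OE, and at 128 and 122 TPM in treated WT, 147 and 101 in treated KO and 133 and 76.2 in treated OE. All 6 doxorubicin libraries exceeded the highest control library. The difference was 1.51 on the log2(TPM + 1) scale in WT (SE 0.30, adjusted p = 0.00325), 1.41 in KO (SE 0.30, adjusted p = 0.00651) and 1.31 in OE (SE 0.30, adjusted p = 0.0101). The call in KO was lost without control replicate b (1.07, adjusted p = 0.0794). That in OE was lost without control replicate b (1.12, adjusted p = 0.0935), without doxorubicin replicate a (0.91, adjusted p = 0.0859) and without replicate a of both KO and OE doxorubicin (adjusted p = 0.0593).

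TNFRSF10A, the other TRAIL receptor with a full death domain, was lower than TNFRSF10B in each library and rose by more. Its level was 10.9 and 17.3 TPM in untreated WT, 16.4 and 12.1 in untreated KO and 15.7 and 10.5 in untreated OE, against 81.1 and 71.2 in treated WT, 112 and 41.2 in treated KO and 94.7 and 34.9 in treated OE. The libraries of the 2 media did not overlap, and the spread within KO and OE doxorubicin was larger than that within any control group. The log2(TPM + 1) difference was 2.39 in WT (SE 0.47, adjusted p = 0.00299), 2.19 in KO (SE 0.47, adjusted p = 0.0064) and 2.08 in OE (SE 0.47, adjusted p = 0.00921). The call in KO was lost without control replicate b (1.98, adjusted p = 0.0599), and that in OE without control replicate b (1.81, adjusted p = 0.0794) or doxorubicin replicate a (1.37, adjusted p = 0.0826). Within a library TNFRSF10A stood at 0.28 to 0.35 times TNFRSF10B in control and at 0.41 to 0.76 times under doxorubicin.

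TNFRSF1A, the TNF receptor, was 5.04 and 10.4 TPM in untreated WT, 10.5 and 6.16 in untreated KO and 11.04 and 5.56 in untreated OE. Under doxorubicin it was 18.1 and 13.6 TPM in treated WT, 18.8 and 16.0 in treated KO and 18.4 and 12.8 in treated OE. The lowest doxorubicin library was thus just above the highest control library. The difference was 0.97 (SE 0.22, adjusted p = 0.002) over the mean of the 3 lines and did not pass the threshold in WT (1.01, SE 0.37, adjusted p = 0.0537), KO (1.01, SE 0.37, adjusted p = 0.0642) or OE (0.88, SE 0.37, adjusted p = 0.103). With reads in place of TPM (voom in limma) it passed in all 3 lines. With median-ratio scaling of libraries it passed in WT and KO.

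The 3 decoys did not move together. TNFRSF10C, the anchored TRAIL decoy, rose: it was 1.28 and 3.53 TPM in untreated WT, 4.14 and 3.10 in untreated KO and 2.91 and 2.02 in untreated OE, and 16.7 and 16.6 in treated WT, 28.5 and 11.04 in treated KO and 26.1 and 9.19 in treated OE. Its values followed those of FAS, with the highest levels in letter a of KO and OE doxorubicin. The SD of the 2 doxorubicin libraries was 0.10 TPM in WT, 12.4 in KO and 11.99 in OE, which the shared SE does not show. The log2(TPM + 1) difference was 2.46 in WT (SE 0.49, adjusted p = 0.00306), 2.04 in KO (SE 0.49, adjusted p = 0.0112) and 2.28 in OE (SE 0.49, adjusted p = 0.00699). In both KO and OE the call was lost without control replicate b, at 1.87 in KO (adjusted p = 0.0803) and 2.09 in OE (adjusted p = 0.0601). It was also lost without doxorubicin replicate a, at 1.39 (adjusted p = 0.0867) and 1.57 (adjusted p = 0.0626).

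TNFRSF10D, the TRAIL decoy with a truncated death domain, fell in each line. It was 43.3 and 65.0 TPM in untreated WT, 61.1 and 51.1 in untreated KO and 65.7 and 42.7 in untreated OE. Under doxorubicin it was 29.7 and 25.1 TPM in treated WT, 16.6 and 20.6 in treated KO and 14.4 and 16.4 in treated OE. No library of the one medium reached the range of the other, and the WT libraries were the highest under doxorubicin. The difference was -0.93 on the log2(TPM + 1) scale in WT (SE 0.26, adjusted p = 0.0172), -1.54 in KO (SE 0.26, adjusted p = 0.00192) and -1.72 in OE (SE 0.26, adjusted p = 0.00117). The call in WT was lost without control replicate b and without either doxorubicin library (3 of the 4 ways to leave out a WT library), with the direction kept. TNFRSF10A to TNFRSF10D are related genes that lie near each other on chromosome 8, and how reads that fit more than 1 of them were counted is not given in the sources used here.

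TNFRSF6B, the secreted decoy for FAS ligand, was the most abundant member in control medium and, EDA2R aside, the one whose control libraries differed most. It was 62.7 and 377 TPM in untreated WT, 388 and 230 in untreated KO and 624 and 268 in untreated OE, and 47.6 and 89.1 in treated WT, 29.6 and 75.6 in treated KO and 55.8 and 150 in treated OE. WT control replicate a lay inside the range of the doxorubicin libraries, and the other 5 control libraries lay above it. The fall over the mean of the 3 lines was -2.002 on the log2(TPM + 1) scale (SE 0.42, adjusted p = 0.00141), and the single lines gave -1.23 in WT (SE 0.73, adjusted p = 0.209), -2.63 in KO (SE 0.73, adjusted p = 0.022) and -2.14 in OE (SE 0.73, adjusted p = 0.0507). The call in KO was lost without control replicate a or b or doxorubicin replicate a, and WT passed the threshold without control replicate a and in a fit of only the 2 WT groups. OE passed it under 6 of 14 alternatives: with log2(TPM + 0.1) (adjusted p = 0.0485), with voom (adjusted p = 0.0496), with the replicate block (adjusted p = 0.0341), in a fit of only the 2 OE groups, without doxorubicin replicate b (adjusted p = 0.0339) and without replicate b of both KO and OE doxorubicin (adjusted p = 0.0254). Its exons lie within RTEL1-TNFRSF6B, a read-through gene of the same strand, which had 250 to 667 more reads than TNFRSF6B in 12 of 12 libraries, so most reads of the locus appear to stand under both names. TNFRSF6B reads came to 77.9% to 95.3% of those of RTEL1-TNFRSF6B in control and to 58.3% to 85.7% under doxorubicin.

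**Figure D2:**
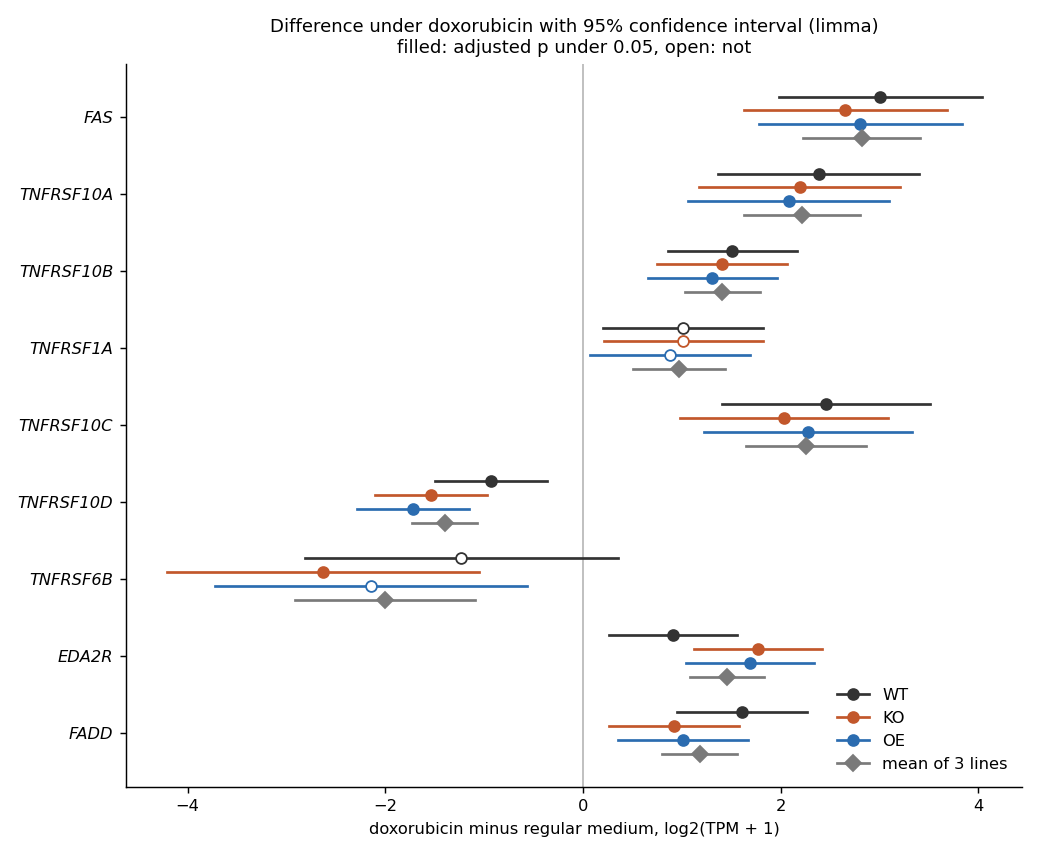
Difference between doxorubicin and control on the log2(TPM + 1) scale for each gene, with its 95% confidence interval from limma, in WT, KO and OE and for the mean of the 3 lines; filled marks passed an adjusted p of 0.05. FAS has the largest positive difference (2.82 for the mean of the 3 lines) and TNFRSF6B the lowest and widest (-2.002); TNFRSF1A is open in each single line.

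Ratios within a library do not depend on how libraries are scaled to each other. The summed level of the TRAIL decoys TNFRSF10C and TNFRSF10D was 0.88 to 1.13 times that of the death receptors TNFRSF10A and TNFRSF10B in the 6 control libraries. Under doxorubicin it was 0.17 to 0.23 times. Decoys thus made up 46.9% to 53.05% of the TPM of these 4 receptors in control and 14.9% to 18.7% under doxorubicin, and the summed level of the 4 went from a median of 116 to 245 TPM. The ranges of the 2 media did not overlap for the decoy ratio, and for the sum OE doxorubicin replicate b (137 TPM) stood below KO control replicate a (139 TPM).

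The makeup of the decoy sum shifted as well. TNFRSF10C was 2.86% to 6.34% of the decoy TPM in control and 34.9% to 64.5% under doxorubicin. The values of 63.2% and 64.5% came from letter a of KO and OE, and the other 4 doxorubicin libraries held 34.9% to 39.8%. TNFRSF6B stood at 51.2 to 342 times FAS in control and at 0.84 to 12.9 times under doxorubicin, a fall seen in each line. KO doxorubicin replicate a was the only library in which FAS exceeded TNFRSF6B. These ratios describe RNA, and neither protein nor receptor at the cell surface was measured.

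**Figure D3:**
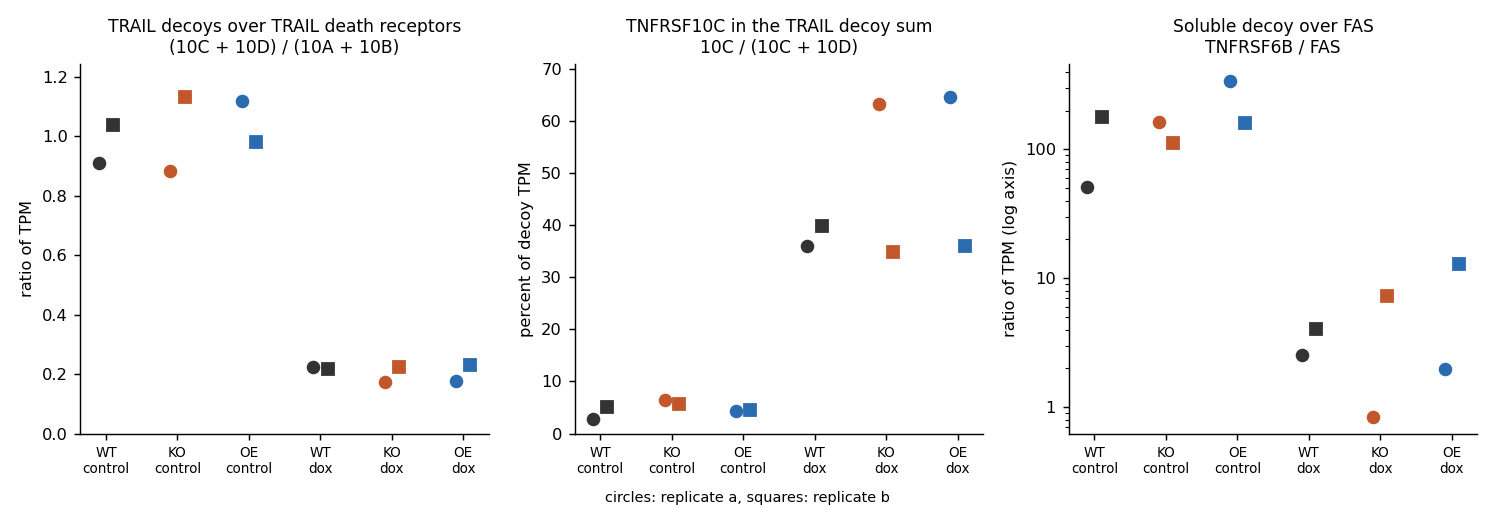
Left: summed TPM of TNFRSF10C and TNFRSF10D over that of TNFRSF10A and TNFRSF10B in each library; middle: TNFRSF10C as a percentage of the decoy sum; right: TNFRSF6B over FAS (log axis). Circles are replicate a and squares replicate b. The decoy ratio is 0.88 to 1.13 in control and 0.17 to 0.23 under doxorubicin, and the letter a libraries of KO and OE doxorubicin have the highest TNFRSF10C percentages.

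EDA2R, the ectodysplasin A2 receptor, was the least abundant member, and under doxorubicin its pooled reads differed more between lines than those of any other member. No read was found in either WT control library, which allows up to 0.065 and 0.097 TPM (3 reads). KO control had 21 and 27 reads (0.60 and 0.73 TPM), and OE control had 12 and 28 reads (0.39 and 0.57 TPM). Under doxorubicin WT had 64 and 43 reads (1.13 and 0.68 TPM), KO had 444 and 252 reads (6.76 and 3.14 TPM) and OE had 324 and 230 reads (4.76 and 2.93 TPM). Both KO libraries and both OE libraries stood above both WT libraries in each medium, as did 10.6% of all tested genes in control and 4.34% under doxorubicin. WT under doxorubicin overlapped KO in control. Against the limit set by 3 reads per library, EDA2R was at least 9.15-fold higher in WT doxorubicin than in WT control, at least 6.81-fold higher in KO control than in WT control and at least 5.09-fold higher in OE control than in WT control. Pooled reads under doxorubicin gave 5.37 times the WT level in KO (95% counting interval 4.38 to 6.65) and 4.25 times in OE (3.45 to 5.28); these intervals leave out the spread between libraries.

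The rise of EDA2R under doxorubicin was 0.91 on the log2(TPM + 1) scale in WT (SE 0.30, adjusted p = 0.0344), 1.77 in KO (SE 0.30, adjusted p = 0.00191) and 1.69 in OE (SE 0.30, adjusted p = 0.00275). The scale understates the change of a gene this low. EDA2R passed the filter of at least 1 TPM in at least 2 libraries through doxorubicin libraries alone, and its highest control library held 0.73 TPM. Its entry to the test was thus not independent of its rise. The call in WT was lost when any 1 of the 4 WT libraries was left out. Under doxorubicin the KO minus WT difference was 1.58 (95% interval 0.94 to 2.23, adjusted p = 0.0504) and the OE minus WT difference 1.33 (0.68 to 1.98, adjusted p = 0.126), so neither passed the threshold. With voom on reads both passed, at 2.38 (adjusted p = 0.00994) and 2.23 (adjusted p = 0.0147) on its own log2 scale. The adjusted p ranged from 0.00854 to 0.543 for KO and from 0.0147 to 0.888 for OE over all alternatives. Letter a was higher than letter b in each line under doxorubicin. Without KO and OE doxorubicin replicate a the differences were 1.13 (adjusted p = 0.103) and 1.05 (adjusted p = 0.138), and without replicate b of both they were 2.04 (adjusted p = 0.00854) and 1.61 (adjusted p = 0.0283). Both differences share the WT libraries.

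**Figure D4:**
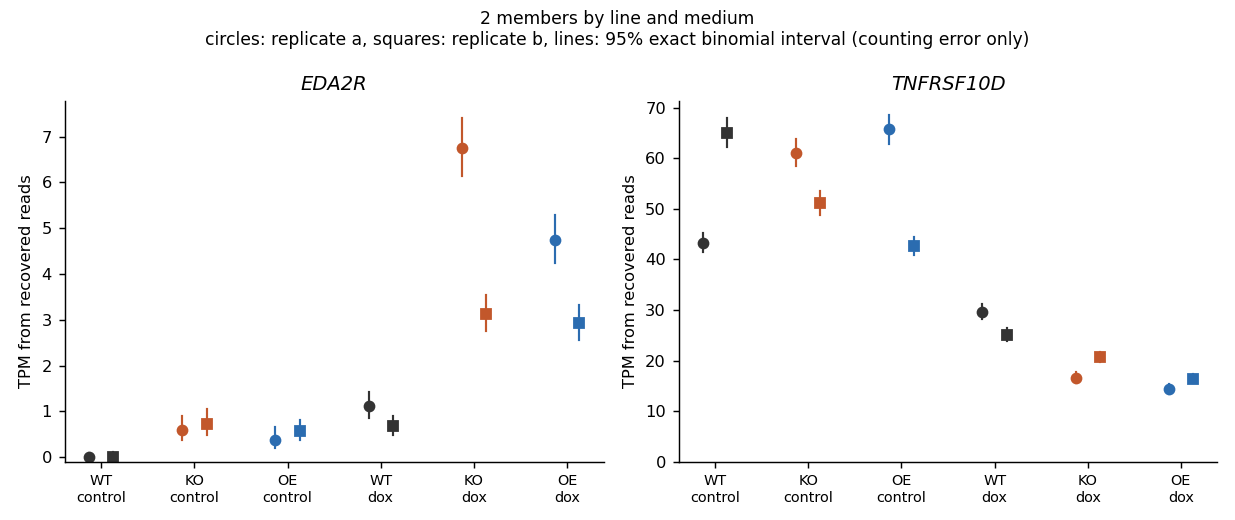
TPM from recovered reads for EDA2R and TNFRSF10D in the 12 libraries by line and medium; circles are replicate a, squares replicate b, and vertical lines 95% exact binomial intervals, which cover counting error only. Under doxorubicin EDA2R is 0.68 to 1.13 TPM in WT and 2.92 to 6.76 TPM in KO and OE, and TNFRSF10D is 25.1 to 29.7 TPM in WT and 14.4 to 20.6 TPM in KO and OE.

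FADD, the adaptor, was 5.78 and 11.2 TPM in untreated WT, 16.1 and 10.5 in untreated KO and 12.97 and 10.8 in untreated OE, and 27.3 and 26.1 in treated WT, 28.6 and 23.1 in treated KO and 29.7 and 20.8 in treated OE. Its level under doxorubicin was the most even of the members, with the highest library 1.43 times the lowest. The log2(TPM + 1) difference was 1.61 in WT (SE 0.31, adjusted p = 0.0025), 0.92 in KO (SE 0.31, adjusted p = 0.0434) and 1.01 in OE (SE 0.31, adjusted p = 0.0323). The call in KO was lost without control replicate b or either doxorubicin library and in a fit of only the 2 KO groups, and that in OE without either control library or doxorubicin replicate a. FAS stood at 0.14 to 0.21 times FADD in control and at 0.45 to 1.23 times under doxorubicin.

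In the main test none of the 9 genes passed the threshold for KO or OE against WT in either medium. The SPARCLE row held 0 reads in WT control and KO control alike, so KO against WT compares the lines as labelled. With 2 libraries a group, a gene that was not called is not shown to be alike between lines. In control medium limma called 0 members for KO against WT, where 0.0918% of all tested genes were called, and 0 for OE against WT (0.118%). At an unadjusted p under 0.05 limma gave 1 for KO, EDA2R (7.14% of tested genes), and 0 for OE (5.03%), and voom called EDA2R in each. Under doxorubicin 0 members were called for KO against WT (0.295% of tested genes) and 0 for OE against WT (0.315%). Without adjustment KO gave 1, EDA2R (3.43% of tested genes), and OE gave 2, EDA2R and TNFRSF10D (4.83%), and voom called 1 in each, EDA2R.

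For the death receptors the intervals were wide. Under doxorubicin the KO minus WT difference of FAS was -0.07 (95% interval -1.10 to 0.96), that of TNFRSF10A -0.16 (-1.18 to 0.86) and that of TNFRSF10B -0.03 (-0.69 to 0.62). The OE minus WT differences were -0.15 (-1.17 to 0.88), -0.39 (-1.41 to 0.62) and -0.31 (-0.96 to 0.35) for the same genes, and libraries of all 3 lines overlapped. Each of these intervals includes 0, and none is narrow enough to show that the lines express these receptors alike.

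TNFRSF10D under doxorubicin was below WT in both KO libraries and both OE libraries. The difference was -0.53 for KO (95% interval -1.10 to 0.03, adjusted p = 1) and -0.79 for OE (-1.36 to -0.22, adjusted p = 0.583). Over all tested genes 10.6% had all 4 of these libraries below both WT libraries. In control medium the 3 lines overlapped.

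The test of whether the drug response itself differed between lines called 0 members for KO and 0 for OE, with an adjusted p of 1 for each gene and an unadjusted p under 0.05 for none; voom called 0 as well. Over all tested genes 0.00655% were called in each of these comparisons, and 1.27% for KO and 0.983% for OE had an unadjusted p under 0.05. The response of EDA2R differed from that in WT by 0.86 in KO (95% interval -0.06 to 1.78) and by 0.78 in OE (-0.14 to 1.69), that of TNFRSF10D by -0.61 (-1.41 to 0.19) and -0.79 (-1.59 to 0.01), and that of FADD by -0.68 (-1.61 to 0.25) and -0.60 (-1.53 to 0.34). With 2 libraries a group, none of these intervals excludes 0. The sign for EDA2R depended on the scale: with log2(TPM + 0.1) its response differed from that in WT by -0.60 in KO and -0.48 in OE, and with voom by -3.03 and -3.02, none of them called.

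The caspases and regulators that act below the receptors rose in part. Of 11 such genes, 6 rose and 0 fell over the mean of the 3 lines (32.2% and 25.9% of all tested genes did), with a median of 0.56 on the log2(TPM + 1) scale against 0.09 over all tested genes. BID, which carries the signal from caspase-8 to mitochondria, went from 4.25 ± 0.75 TPM (SD, n = 6) to 16.2 ± 2.998 TPM (difference 1.71, adjusted p = 4.34e-06). CASP8, the initiator bound by FADD, went from 3.31 ± 1.03 to 12.6 ± 3.15 TPM (1.66, adjusted p = 1.47e-05), and CASP10, its relative, from 0.82 ± 0.30 to 3.01 ± 1.44 TPM (1.08, adjusted p = 0.000291). CFLAR, which competes with caspase-8 for FADD and can block it, went from 1.67 ± 0.34 to 4.93 ± 2.06 TPM (1.08, adjusted p = 0.00146). CASP6, an executioner, went from 4.26 ± 1.59 to 13.04 ± 4.38 TPM (1.3995, adjusted p = 0.000196). CASP9, APAF1, XIAP and DIABLO did not pass the threshold. In single lines CFLAR passed the threshold in WT (adjusted p = 0.0265) but not in KO (0.108) or OE (0.0746). CASP8 and CASP10 passed it in each line. Over the mean of the 3 lines, CFLAR and the caspases it can restrain thus stood higher in the same libraries.

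Among adaptors, kinases and ubiquitin ligases of these receptors, 5 of 13 tested genes rose and 3 fell, against 32.2% and 25.9% of all tested genes. MLKL, the pore-forming protein of necroptosis, went from 0.61 ± 0.32 to 3.09 ± 0.79 TPM (1.34, adjusted p = 3.81e-05), and RNF31, a linear ubiquitin ligase subunit, from 12.2 ± 3.48 to 24.6 ± 4.83 TPM (0.97, adjusted p = 0.000391). TRADD, the adaptor of TNFRSF1A, went from 3.23 ± 1.67 to 7.14 ± 1.37 TPM (1.02, adjusted p = 0.00051). RIPK1, its partner kinase, went from 5.35 ± 2.33 to 11.2 ± 2.63 TPM (0.99, adjusted p = 0.00236). Libraries of the media overlapped for TRADD and for RIPK1, and in single lines both passed the threshold in WT alone. For TRADD and RIPK1 the adjusted p was 0.0936 and 0.174 in KO, and 0.0549 and 0.182 in OE. The genes that fell were BIRC3 and BIRC2, ligases that ubiquitinate RIPK1, and CYLD, which removes such chains. BIRC3 went from 13.1 ± 2.26 to 5.19 ± 1.60 TPM (-1.21, adjusted p = 0.000143) and CYLD from 7.71 ± 1.14 to 3.04 ± 0.52 TPM (-1.11, adjusted p = 6.56e-05). Both passed the threshold in each line. BIRC2 fell by less (-0.61, adjusted p = 0.00172), and its libraries overlapped between the media. In single lines BIRC2 passed in KO alone (adjusted p = 0.0213), not in WT (0.145) or OE (0.1).

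Of 10 other receptors of the family that were tested, 1 rose, 5 fell and 4 did not pass the threshold, with a median of -0.41, where 32.2% and 25.9% of all tested genes rose and fell. LTBR, the lymphotoxin beta receptor, rose from 4.25 ± 1.51 to 17.2 ± 2.13 TPM (1.84, adjusted p = 8.27e-06). TNFRSF11A, the receptor of RANK ligand, fell from 2.02 ± 0.34 to 0.45 ± 0.13 TPM (-1.06, adjusted p = 1.84e-05), TNFRSF21 (DR6) from 49.4 ± 5.25 to 26.7 ± 5.20 TPM (-0.88, adjusted p = 0.000186) and TNFRSF25 (DR3) from 6.58 ± 2.10 to 2.89 ± 0.86 TPM (-0.95, adjusted p = 0.00123). TNFRSF21 and TNFRSF25 carry death domains too, so death receptors did not all rise. Of 7 ligands, 2 were among the listed genes. EDA, whose A2 form binds EDA2R, fell from 3.93 ± 0.96 to 1.53 ± 0.28 TPM (-0.95, adjusted p = 0.000327), and TNFSF15, at 0.15 ± 0.12 and 0.38 ± 0.24 TPM, was below the filter of the test. The ligands of FAS, of the TRAIL receptors and of TNFRSF1A were not among the listed genes, so no level can be given for them.

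**Figure D5:**
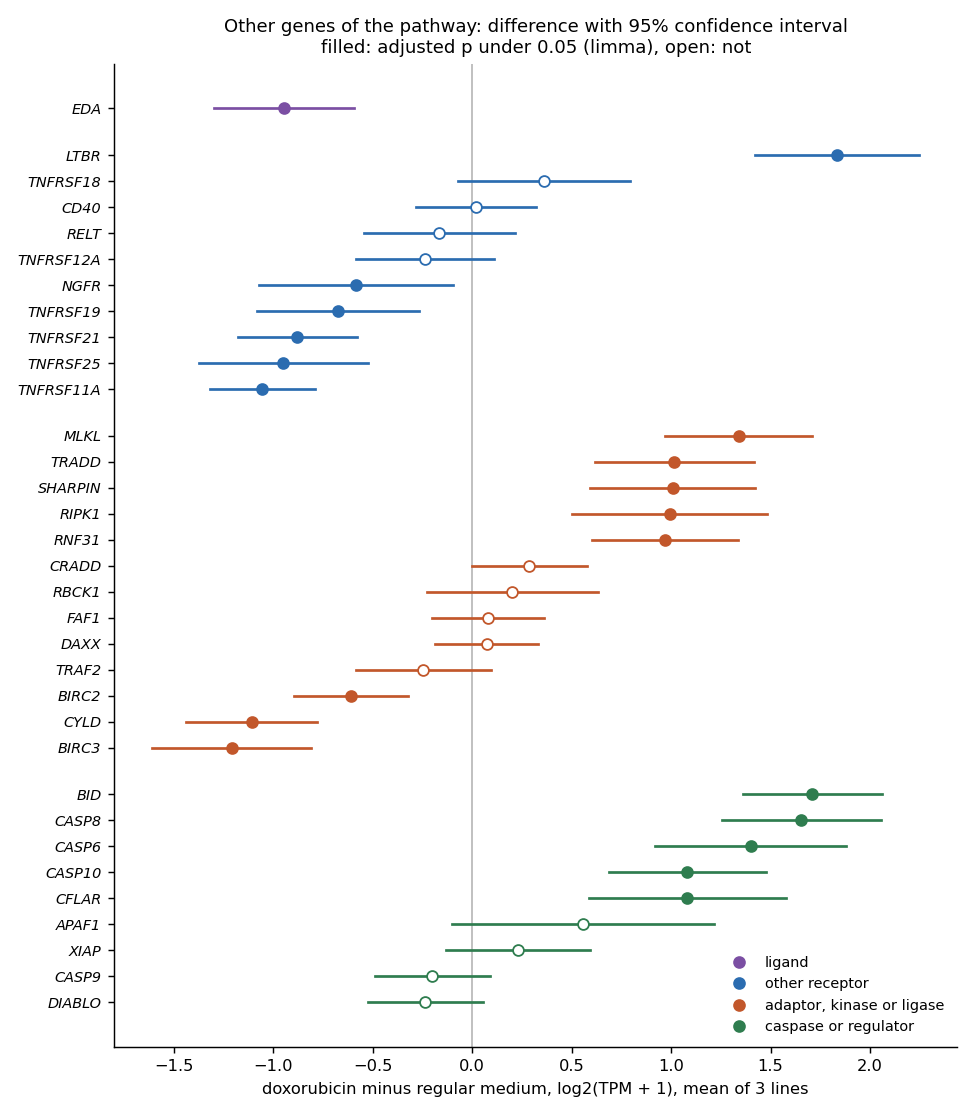
Difference between doxorubicin and control (mean of the 3 lines, log2(TPM + 1)) with 95% confidence intervals from limma for the tested ligand, other receptors, adaptors, kinases and ligases, and 9 of the 11 caspases or regulators; filled marks passed an adjusted p of 0.05. LTBR (1.84), BID (1.71) and CASP8 (1.66) have the highest values and BIRC3 (-1.21) the lowest.

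Over the 12 libraries log2(TPM + 1) of TNFRSF10A and FAS had a Pearson r of 0.99, and EDA2R had an r of 0.71 (with TNFRSF1A) to 0.81 (with TNFRSF10C) with the other members that rose. These are descriptions in which all points share the 2 media and 12 libraries. The genes most like each member were listed by the same measure among genes with a mean of at least 5 TPM. Those most like FAS were TAP1 (r = 0.996), WDR63 (0.995), TRMT1 (0.994), TP53I3 (0.993) and PSMB10 (0.992). TNFRSF10A was most like CIRBP (0.996), TNFRSF10B most like NFKB1 (0.997), TNFRSF10C most like TMEM63B (0.996), and FADD most like RRS1 (0.994). EDA2R was most like NECTIN4 (0.964) and AQP3 (0.960). The genes most like TNFRSF10D were MSH6 (0.969), a mismatch repair gene that went from a mean of 9.71 to 2.81 TPM, and HIST1H4A (0.968). TNFRSF6B was most like RTEL1-TNFRSF6B (0.997), the gene whose exons contain its own, and next BCKDK (0.927).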

How the data were processed

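Total RNA was sequenced with a stranded kit, per the labels' protocols. The authors deposited log2 TPM per gene, per the file headers. Build hg38 was used with HISAT2 2.0.4, featureCounts, edgeR 3.12.1 (R 3.3.3) and SAMtools 1.7, per the submitters' processing notes; order of steps, strand setting and filter are not given in the sources used here. Symbols came from GENCODE v29 (16564 of 16676 identifiers).

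TPM times exon length gave whole reads plus a small prior within 0.05 reads for 15182 genes (91.7% of those in GENCODE), and a searched length gave them for a further 1480, FAS, TNFRSF10C and TNFRSF6B among them. Read totals were 12593468 to 30674428 per library. Intervals are 95% exact binomial, the limit for 0 is 3 reads, and both cover counting error only. A group of 321 small RNA genes took 64.5% to 75.3% of all TPM, so their share moves the TPM of every other gene. The group holds genes of small RNA or ribosomal RNA types and any very abundant gene not annotated as protein-coding. The latter were picked by their level in these libraries, which raises the share.

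The main test was limma 3.58.1 (R 4.3.3) with a trended empirical Bayes prior on log2(TPM + 1), over all 12 libraries with 6 group means (6 residual and 6.97 prior degrees of freedom), for genes with at least 1 TPM in at least 2 libraries. It was also run on simulated reads with genes changed in WT doxorubicin alone. That setting is simpler than these data and does not bear on single calls. Confidence intervals are 95%. The alternatives were another pseudocount, filter, scaling, set of groups or replicate block, voom on reads, and libraries left out. All 9 members are named. Of each pathway list, the up to 4 called genes with the smallest adjusted p are named, plus the ligands, CASP8, CASP10, CFLAR, RIPK1 and TRADD, and a few others were named after their values were seen. Of each member with a mean of at least 1 TPM, the 5 most correlated genes were listed. A few genes that these rules would name are not reported here. Members and lists were chosen with earlier results of these data known.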

Additional observations from a re-analysis of the deposited data

How the results depend on the processing

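Of 1340 values of single members under the alternatives, 1272 kept their side of the threshold, 31 called values lost the call and 37 others gained it, and no called value turned its sign. For the mean of the 3 lines all 9 members stayed called under each alternative that tested them. The number of members called in KO under doxorubicin ranged from 3 to 8 when libraries were left out, and in OE from 3 to 8. For KO against WT in control medium 1 member was called in place of 0 with log2(TPM + 0.1) and 1 with voom, and for OE against WT in control medium 1 with voom. For KO against WT under doxorubicin 1 was called, in place of 0, with no filter, with median-ratio scaling, with small RNAs left out, with voom, in a fit of the compared groups alone and with the replicate block, and 0 to 1 when libraries were left out. For OE against WT under doxorubicin 1 was called with median-ratio scaling, with small RNAs left out, in a fit of the compared groups alone and with voom, and 0 to 1 when libraries were left out. Each of these was EDA2R. Leaving out the KO and OE doxorubicin libraries of 1 letter together was chosen after seeing the data: without letter b, 1 member was called in each of these last comparisons.

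The replicate letters were not taken as pairs, since the labels do not say that a letter marks a shared day or batch. The a minus b differences of 2 groups correlated between -0.39 and 0.81, so the letters did not mark 1 shift shared by all groups. The highest values were those of KO with OE, 0.81 under doxorubicin and 0.50 in control. WT control had -0.39 with KO control and -0.35 with OE control. With the replicate block the calls were 1 for KO against WT under doxorubicin (EDA2R, adjusted p = 0.0282) and 0 for OE against WT (EDA2R, adjusted p = 0.0704). Median-ratio scaling moved the median of all genes from 0.17 to -0.0022 in WT under doxorubicin and from 0.20 to -0.0014 for KO against WT in control. Over all genes limma called 3695 in KO and 3510 in OE under doxorubicin, against 5856 and 6023 with voom. For KO and OE against WT in control limma called 14 and 18, against 37 and 44 with median-ratio scaling and 22 and 28 with voom. Under doxorubicin it called 45 and 48, against 69 and 85 with median-ratio scaling and 95 and 107 with voom. The 2 libraries a group limit every interval, and depth also limits EDA2R in control medium, with at most 28 reads.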
